A study of Mus musculus with 4 samples.

Results

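The NF-kB subunit and inhibitor genes are 10 genes, taken by their symbols from the 23284 gene rows measured in each library: the 5 subunit genes Nfkb1, Nfkb2, Rel, Rela and Relb, and the 5 inhibitor genes Nfkbia, Nfkbie, Nfkbiz, Bcl3 and Tnfaip3. RNA came from mouse macrophages grown from bone marrow in 4 cultures, each giving 1 library of poly(A) RNA. They were Spic-/- cells with 100 ng/ml lipopolysaccharide (LPS, an outer membrane component of bacteria that Toll-like receptor 4 senses) for 4 h, Spic+/+ control cells with the same LPS, Spic-/- cells without LPS and control cells without LPS. All 4 cultures had first been kept for 18 h with hemin, oxidised heme, at 40 µM per the treatment protocol, while the sample descriptions write mM. The gene lost, Spic, codes for Spi-C, a heme-inducible transcription factor of the Ets family. The titles shorten the knockout to cKO, and neither the allele, nor a Cre driver, nor the number of mice is given in the labels. With 1 library a group there is no replicate error, no test and no p-value, so each difference below is one between single libraries.

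NF-kB factors are dimers of 5 related proteins that share a DNA-binding Rel homology domain. In resting cells IkB proteins hold them in the cytoplasm. Toll-like receptor signals activate the IkB kinase, IkB is degraded, and the dimers enter the nucleus. In macrophages many NF-kB target genes encode the pathway's own subunits and inhibitors, which makes feedback loops.

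The authors' values are FPKM, that is fragments per kilobase of transcript after scaling for depth, so that levels of different genes can be set side by side. From the spacing of the lowest values, 1 FPKM stood for about 8.06, 10.6, 12.9 and 15.6 fragments per kilobase in Spic-/- cells with LPS, control cells with LPS, Spic-/- cells without LPS and control cells without LPS. Each member then rested on at least 284 estimated fragments, the lowest being Bcl3 in Spic-/- cells without LPS. The 95% counting intervals given below come from these estimates and leave out variation between cultures. Ratios called log2 are of (FPKM + 1), and genes were counted at 2-fold and other thresholds on that scale, whereas a fold or ratio given for a single gene is of FPKM itself. Spic was at 80.8 FPKM in Spic-/- cells and 406 FPKM in control cells with LPS. Without LPS it was at 14.98 FPKM in Spic-/- cells and 53.1 FPKM in control cells. It was thus lower in the knockout than in control cells in each LPS state, but present, and higher with LPS in both genotypes. Macrophage markers were present in every library, with each of 10 at 6.47 FPKM or more, and B, T and NK, dendritic and mast cell markers were near 0, with summed levels of at most 2.2 FPKM per list. The 6 neutrophil markers measured summed to between 3.12 and 8.20 FPKM. Stromal markers were present, and their values stand beside the genotype comparison.

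Promoters of the members are shown because the 10 genes differed most from one another in how far LPS moved them. RefSeq promoter windows (GRCm38.p6, from 250 bases before the start site to 50 after it) were matched for 7 of the 10 genes. Both strands were searched for the kappa B consensus, the site that NF-kB dimers bind, for the shorter form GGANNTTCC, which can overlap it, and for GAGGAA, the Ets core with the flank known from PU.1 and Spi-C. The kappa B consensus was found for 6 of these 7 genes, Bcl3, Nfkb2, Nfkbia, Nfkbie, Rel and Tnfaip3, and in 5.14% of 27025 genes with a window. GGANNTTCC was found for 4 of the 7 (Nfkb2, Nfkbia, Nfkbie and Tnfaip3), against 4.86% of all genes, and GAGGAA for Rel alone, against 31.25% of all genes. Of the 10 windows of these genes, the Rela window and 1 of the 2 Tnfaip3 windows, chr10:19011964-19012213 before the start, held neither kappa B form. The Bcl3 match lay just after the start site. A match describes the letters only, and binding was not measured. Positions count back from -1, the last base before the start. In the Nfkbia window matches began at -178 and -29, in the other Tnfaip3 window at -125, -24 and -12, in the Rel window at -92 and -91, and in the Nfkb2 window at -39, -38 and -11. The 250 bases before the start of 5 genes are given 5′ to 3′ on the gene's strand, with matches to the kappa B consensus or GGANNTTCC in capitals. They are chr12:55492648-55492897 (minus strand) for Nfkbia, chr10:19015411-19015660 (minus strand) for Tnfaip3, chr11:23770970-23771219 (minus strand) for Rel, the first of 3 windows, chr19:46304487-46304736 (plus strand), for Nfkb2, and chr19:5637291-5637540 (plus strand) for Rela.
Nfkbia: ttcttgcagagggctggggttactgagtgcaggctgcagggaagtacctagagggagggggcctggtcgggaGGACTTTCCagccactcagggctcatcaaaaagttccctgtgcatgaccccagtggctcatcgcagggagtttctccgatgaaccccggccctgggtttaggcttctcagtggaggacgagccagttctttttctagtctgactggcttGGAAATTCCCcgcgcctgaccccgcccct
Tnfaip3: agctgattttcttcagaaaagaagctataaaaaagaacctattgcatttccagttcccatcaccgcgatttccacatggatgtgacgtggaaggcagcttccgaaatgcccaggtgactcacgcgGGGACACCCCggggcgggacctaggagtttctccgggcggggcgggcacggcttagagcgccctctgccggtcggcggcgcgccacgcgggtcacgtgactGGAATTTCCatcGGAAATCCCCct
Rel: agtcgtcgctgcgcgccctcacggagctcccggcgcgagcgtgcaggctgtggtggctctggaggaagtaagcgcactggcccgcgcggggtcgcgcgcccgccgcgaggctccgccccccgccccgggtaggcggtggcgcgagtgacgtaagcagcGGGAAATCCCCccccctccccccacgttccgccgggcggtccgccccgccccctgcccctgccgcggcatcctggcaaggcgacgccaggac
Nfkb2: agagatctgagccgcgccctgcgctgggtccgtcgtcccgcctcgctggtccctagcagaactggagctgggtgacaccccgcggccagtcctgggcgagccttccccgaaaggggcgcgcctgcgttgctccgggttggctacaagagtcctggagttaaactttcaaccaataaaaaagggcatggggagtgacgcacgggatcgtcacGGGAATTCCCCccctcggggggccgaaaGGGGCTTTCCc
Rela: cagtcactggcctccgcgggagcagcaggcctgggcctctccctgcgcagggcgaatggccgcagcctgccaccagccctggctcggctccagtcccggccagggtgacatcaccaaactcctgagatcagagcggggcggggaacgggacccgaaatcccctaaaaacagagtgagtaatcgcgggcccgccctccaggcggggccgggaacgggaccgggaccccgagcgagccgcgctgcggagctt

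LPS went with higher levels of all 10 genes in both genotypes. With LPS, 10 of 10 were 2-fold or more higher in Spic-/- cells, where 13.7% of 8098 genes with at least 5 FPKM in 1 of the 2 libraries were. In control cells 10 of 10 were, where 12.3% of 8050 genes were. Rel, at 4.68 FPKM without LPS in control cells, passed that minimum there only through the library with LPS. With no minimum the count was also 10 of 10. None of the 10 was 2-fold or more lower, where 7.74% of genes were in Spic-/- cells and 6.5% in control cells. At 3-fold the count was 9 of 10 in each genotype, all but Rela, where 7.66% of genes were higher in Spic-/- cells and 7.08% in control cells. The median log2 ratio of the members was 3.36 in Spic-/- cells and 3.28 in control cells, and that of all genes 0.12 in Spic-/- cells and 0.11 in control cells. The members nonetheless spread widely, from 2.69-fold for Rela in control cells to 48.8-fold for Nfkbiz in control cells.

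Among the subunit genes, Rel had the highest LPS ratio. Rel (chromosome 11, 23736847 to 23770970, minus strand) encodes c-Rel, a subunit with a transactivation domain that is prominent in lymphoid and myeloid cells. Its level was 88.7 FPKM with LPS and 5.397 FPKM without LPS in Spic-/- cells, and 70.6 FPKM with LPS and 4.68 FPKM without LPS in control cells. That is 16.4-fold in Spic-/- cells (counting interval 14.99 to 18.03) and 15.1-fold in control cells (13.8 to 16.5). Without LPS Rel was the lowest of the 10 genes in each genotype, and with LPS its level reached that of Rela.

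Nfkb1 (chromosome 3, 135584655 to 135691547, minus strand) and Nfkb2 (chromosome 19, 46304320 to 46312385, plus strand) encode the long precursors whose C-terminal ankyrin repeats act as IkB-like inhibitors and whose N-terminal parts are the subunits that lack a transactivation domain. Nfkb1 was at 262 FPKM with LPS and 24.1 FPKM without LPS in Spic-/- cells, and at 187 FPKM with LPS and 20.2 FPKM without LPS in control cells. Nfkb2 was at 347 FPKM with LPS and 33.6 FPKM without LPS in Spic-/- cells, and at 292 FPKM with LPS and 27.4 FPKM without LPS in control cells. For each of these genes both libraries with LPS were above both libraries without LPS. Nfkb1 was 10.9-fold higher in Spic-/- cells and 9.23-fold in control cells, and Nfkb2 10.3-fold in Spic-/- cells and 10.6-fold in control cells.

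Relb and Rela, which encode subunits with transactivation domains, had the lowest LPS ratios of the 10 genes. Relb (chromosome 7, 19606217 to 19629438, minus strand), the usual partner of the Nfkb2 product in the non-canonical pathway, was at 101 FPKM with LPS and 24.1 FPKM without LPS in Spic-/- cells, and at 92.1 FPKM with LPS and 19.1 FPKM without LPS in control cells. Rela (chromosome 19, 5637483 to 5648130, plus strand), which encodes the main activating subunit of the canonical pathway, was at 91.03 FPKM with LPS and 30.2 FPKM without LPS in Spic-/- cells, and at 68.1 FPKM with LPS and 25.4 FPKM without LPS in control cells. Rela was 3.02-fold higher with LPS in Spic-/- cells (2.79 to 3.26) and 2.69-fold in control cells (2.48 to 2.91), and its log2 ratios, 1.56 in Spic-/- cells and 1.39 in control cells, exceeded those of 92.2% of genes in Spic-/- cells and 91.7% in control cells. Relb was 4.17-fold higher in Spic-/- cells and 4.83-fold in control cells.

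**Figure D1:**
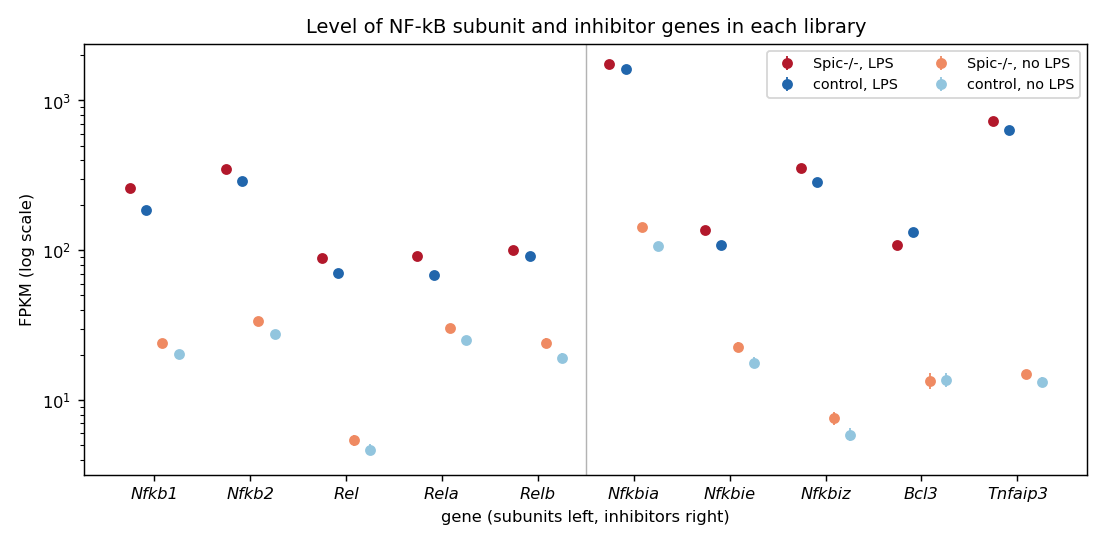
Level of the 5 subunit and 5 inhibitor genes in FPKM (log axis) in each of the 4 libraries, coloured by library, with 95% counting intervals where they are wider than the point. All 10 genes are higher with LPS in both genotypes, Rel and Nfkbiz are lowest without LPS, and Nfkbia is highest in every library, at 1738 FPKM in Spic-/- cells with LPS.

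The inhibitor genes reached the largest LPS ratios of the family. Tnfaip3 (chromosome 10, 19000910 to 19015657, minus strand) encodes A20, a ubiquitin-editing enzyme that shuts off signalling above the IkB kinase. It was at 725 FPKM with LPS and 14.9 FPKM without LPS in Spic-/- cells, and at 635 FPKM with LPS and 13.3 FPKM without LPS in control cells. Its fold was 48.6 in Spic-/- cells (45.3 to 52.2) and 47.8 in control cells (44.7 to 51.2), and its log2 ratio ranked 39 from the highest in Spic-/- cells and 43 in control cells.

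Nfkbiz (chromosome 16, 55811375 to 55838899, minus strand) encodes IkB zeta, a nuclear IkB protein that acts as a coactivator at a subset of NF-kB target genes. It was at 355 FPKM with LPS and 7.58 FPKM without LPS in Spic-/- cells, and at 288 FPKM with LPS and 5.896 FPKM without LPS in control cells. Its fold was 46.9 in Spic-/- cells (42.3 to 52.04) and 48.8 in control cells (43.9 to 54.3), so Nfkbiz and Tnfaip3 could not be separated from each other by their counting intervals in either genotype.

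Nfkbia (chromosome 12, 55489410 to 55492647, minus strand) encodes IkB alpha, the inhibitor that is degraded and resynthesised in the classical feedback loop. It was at 1738 FPKM with LPS and 143 FPKM without LPS in Spic-/- cells, and at 1633 FPKM with LPS and 106 FPKM without LPS in control cells. Its fold was 12.1 in Spic-/- cells (11.6 to 12.7) and 15.4 in control cells (14.7 to 16.1), 2 intervals that do not overlap.

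Bcl3 (chromosome 7, 19808462 to 19822770, minus strand) encodes a nuclear IkB protein that binds subunit dimers lacking a transactivation domain, and Nfkbie (chromosome 17, 45555703 to 45563169, plus strand) encodes IkB epsilon, a cytoplasmic inhibitor. Bcl3 was at 109 FPKM with LPS and 13.5 FPKM without LPS in Spic-/- cells, and at 133 FPKM with LPS and 13.6 FPKM without LPS in control cells. Nfkbie was at 137 FPKM with LPS and 22.5 FPKM without LPS in Spic-/- cells, and at 109 FPKM with LPS and 17.8 FPKM without LPS in control cells. Bcl3 was 8.09-fold higher with LPS in Spic-/- cells and 9.75-fold in control cells, and Nfkbie 6.07-fold in Spic-/- cells and 6.13-fold in control cells. An antisense gene, Gm16175, shares 55 bases with the 1850 exonic bases of Bcl3, and the sources used here do not say whether strand was used when fragments were assigned.

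**Figure D2:**
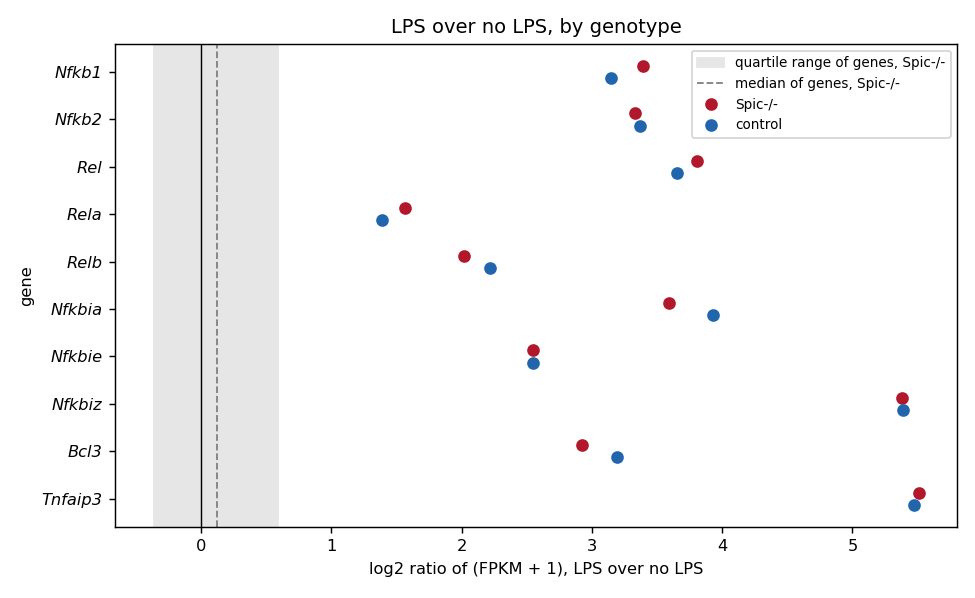
Log2 ratio of (FPKM + 1), LPS over no LPS, of each gene in Spic-/- and in control cells, with the median (dashed) and the range between the quartiles (grey) of all genes in Spic-/- cells. Every gene lies right of the grey band, Rela is nearest to it, and Tnfaip3 and Nfkbiz are farthest, with ratios of 5.51 and 5.38 in Spic-/- cells and 5.48 and 5.39 in control cells.

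The order of levels within the family differed between LPS states. With LPS the first members were Nfkbia and Tnfaip3 in both genotypes. Nfkbiz and Nfkb2 followed in both, with overlapping counting intervals. Nfkb1 was next in both. At the low end with LPS, Rela and Rel had overlapping intervals in each genotype, and so did Bcl3 and Relb in Spic-/- cells. Without LPS Nfkbia was again first in both genotypes and was followed by Nfkb2 and Rela, which overlapped. Nfkb1 and Relb overlapped without LPS, as did Tnfaip3 and Bcl3, while Nfkbiz and Rel were the lowest pair and stood apart from each other.

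Shares within a library do not depend on how libraries were scaled, and they showed the same reordering. The 5 subunit genes summed to 890 FPKM in Spic-/- cells with LPS and 117 FPKM in Spic-/- cells without LPS, and to 709 FPKM in control cells with LPS and 96.8 FPKM in control cells without LPS. Rela made up 10.2% of that sum with LPS and 25.7% without LPS in Spic-/- cells, and 9.60% with LPS and 26.2% without LPS in control cells. Nfkb2, the largest share in every library, made up 39.05% with LPS and 28.6% without LPS in Spic-/- cells, and 41.2% with LPS and 28.3% without LPS in control cells. The subunit sum therefore held a smaller share of Rela and a larger one of the precursor genes in the libraries with LPS.

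The inhibitor genes outweighed the subunit genes more with LPS than without. Their summed FPKM was 3.44 times the subunit sum with LPS and 1.72 times without LPS in Spic-/- cells, and 3.94 times with LPS and 1.62 times without LPS in control cells. Tnfaip3 made up 23.7% of the inhibitor sum with LPS and 7.39% without LPS in Spic-/- cells, and 22.7% with LPS and 8.47% without LPS in control cells. Nfkbia held at least 56.7% of the inhibitor sum in every library. The FPKM of Nfkbia was 19.1 times that of Rela with LPS and 4.75 times without LPS in Spic-/- cells, and 23.96 times with LPS and 4.18 times without LPS in control cells.

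**Figure D3:**
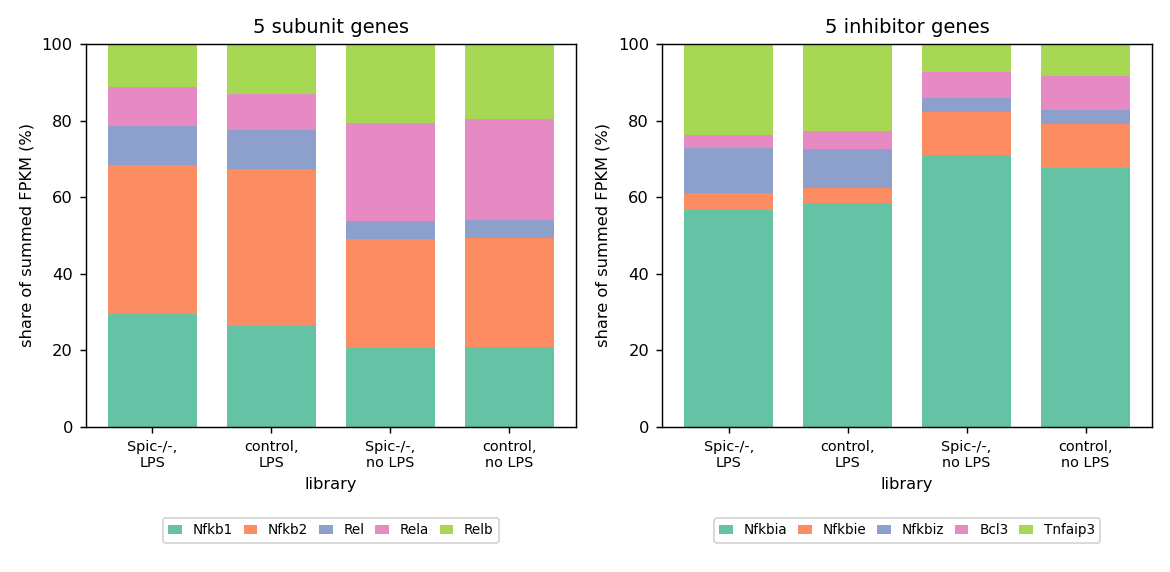
Share of each gene in the summed FPKM of the 5 subunit genes (left panel) and of the 5 inhibitor genes (right panel), in %, 1 stacked bar per library. The Rela share is 10.2% and 9.60% in the Spic-/- and control libraries with LPS against 25.7% and 26.2% without LPS, and the Tnfaip3 share is 23.7% and 22.7% with LPS against 7.39% and 8.47% without LPS.

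The genotypes differed much less than the LPS states in these genes, and few genes of any kind were 2-fold apart. With LPS 0 of 10 were at least 2-fold higher in Spic-/- cells, where 0.493% of 7509 genes were, and 0 were at least 2-fold lower, where 0.4% of genes were. Without LPS 0 of 10 were higher, where 0.49% of 7762 genes were, and 0 were lower, where 0.412% were. At 1.5-fold the count was also 0 of 10 in both LPS states, where the share of genes was 2.86% on the higher and 1.69% on the lower side with LPS, and 1.75% on the higher and 1.37% on the lower side without LPS. With so few genes past these thresholds, 0 of 10 does not set the members apart. Within that range, 9 of 10 were above 0 in Spic-/- over control cells in both LPS states, while 68.1% of genes were above 0 with LPS and 68.9% without LPS. It was also 9 of 10 after median-of-ratios scaling, where 68.5% of genes were above 0 with LPS and 69% without LPS, and after upper-quartile scaling, where 50.9% were with LPS and 48.4% without LPS. Scaling to equal summed FPKM was not run and would put Nfkbia and Relb below 0 with LPS as well. The member medians were 0.28 with LPS and 0.26 without LPS on the log2 scale, and those of all genes 0.09 with LPS and 0.07 without LPS. Rel, at 5.397 FPKM in Spic-/- cells and 4.68 FPKM in control cells without LPS, passed the 5 FPKM minimum only through Spic-/- cells.

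The genotype ratio of single genes differed in size and in some cases between LPS states. Nfkb1 had the highest ratio with LPS, 1.40 (counting interval 1.36 to 1.45), above 95.7% of genes, and without LPS its ratio was 1.19 (1.10 to 1.29). Nfkbia had the highest ratio without LPS, 1.35 (1.27 to 1.43), above 96.3% of genes, and with LPS its ratio was 1.06 (1.04 to 1.09), above 50.4% of genes, or 0.001 on the log2 scale after upper-quartile scaling. For both genes the intervals of the LPS states do not overlap, and they are ordered in opposite ways. Rela had 1.34 (1.25 to 1.43) with LPS and 1.19 (1.09 to 1.30) without LPS, and Rel 1.26 with LPS and 1.15 without LPS.

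Bcl3 was the member with the genotype ratio below 1. It had 0.82 (0.768 to 0.877) with LPS, above 5.83% of genes, and 0.989 (0.842 to 1.16) without LPS, an interval that spans 1. Relb had 1.09 (1.02 to 1.17) with LPS and 1.26 (1.13 to 1.42) without LPS. The other nuclear IkB gene, Nfkbiz, had 1.24 with LPS and 1.28 without LPS, so that its FPKM was 3.26 times that of Bcl3 in Spic-/- cells and 2.16 times in control cells with LPS, and 0.562 times in Spic-/- cells and 0.432 times in control cells without LPS. Nfkb2, Nfkbie and Tnfaip3 had ratios from 1.12 to 1.26 in both LPS states.

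Stromal markers, which mark cell types other than macrophages, moved with genotype in the other direction. Of 11 stromal and endothelial markers, 8 of the 9 with at least 5 FPKM were at least 1.5-fold lower in Spic-/- cells with LPS, and 7 of 8 without LPS. Of all genes 1.69% were with LPS and 1.37% without LPS. Only 8 of the 11 markers reached 5 FPKM in a Spic-/- library. With LPS at least 1 of the 9 therefore passed only through the control library, where it was higher. The 11 summed to 381 FPKM in Spic-/- cells and 674 FPKM in control cells with LPS, and to 337 FPKM in Spic-/- cells and 657 FPKM in control cells without LPS. The endothelial markers Pecam1 and Cdh5 were at 0.163 FPKM or less in every library, with Cdh5 listed at 0 in Spic-/- cells with LPS and Pecam1 at 0 in control cells with LPS. The 10 macrophage markers had a median log2 ratio of 0.22 with LPS and 0.23 without LPS, close to that of the members. They were mixed, with 7 of 10 above 0 in each LPS state, where 68.1% of genes were with LPS and 68.9% without LPS. Lyz2 had -0.72 with LPS and -0.66 without LPS, and Cd14 had 0.22 with LPS and 1.03 without LPS. The 10 summed to 9552 FPKM in Spic-/- cells and 10850 FPKM in control cells with LPS. Without LPS they summed to 6395 FPKM in Spic-/- cells and 8264 FPKM in control cells. The part of stromal cells in the genotype ratios was not tested, and in bulk RNA fewer cells of a type and less RNA per cell cannot be told apart.

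**Figure D4:**
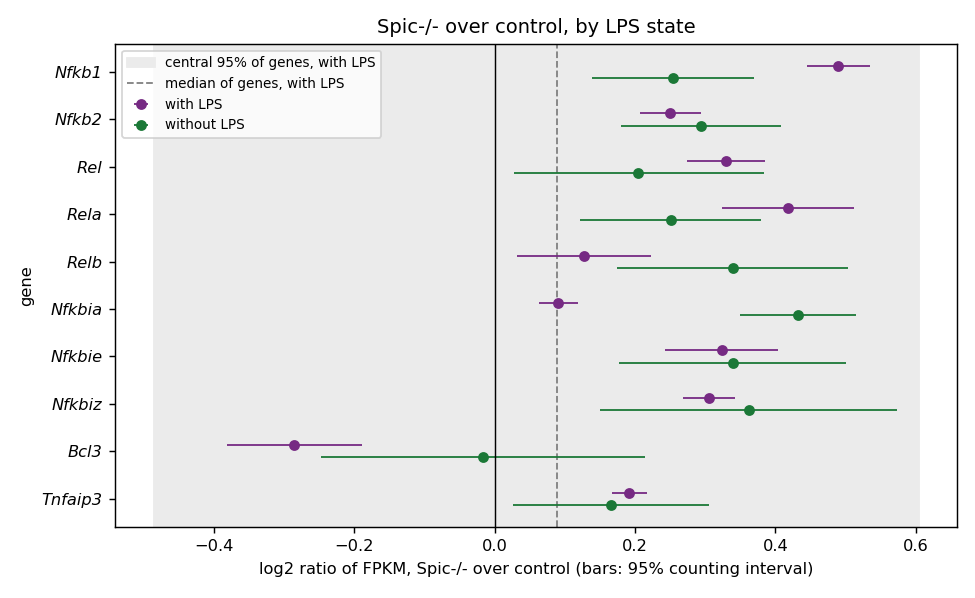
Log2 ratio of FPKM, Spic-/- over control, of each gene with and without LPS, with 95% counting intervals as bars, and the median (dashed) and central 95% (grey) of all genes with LPS. Bcl3 is the gene whose points lie left of 0, and Nfkb1 and Nfkbia are the genes whose intervals with and without LPS do not overlap.

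The LPS ratios of the genotypes were set against each other for each member. Of the 10 genes, 0 had ratios 1.5-fold or more apart, where 2.97% of 8272 genes did, so that count does not set the members apart either. The Spic-/- ratio was the lower one for 6 of the 10 genes, where it was for 47.2% of all genes, and for 4 of the 10 with a pseudocount of 5 FPKM. The difference of log2 ratios, Spic-/- minus control, was lowest for Nfkbia (-0.34), Bcl3 (-0.27) and Relb (-0.20) and highest for Nfkb1 (0.24), Rela (0.17) and Rel (0.15). The other 4 genes were between -0.04 and 0.04. The inhibitor genes Nfkbia and Bcl3 were at the 5.89th and 9.02nd percentile of all genes, and Nfkb1 was at the 89.5th.

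Other genes of the pathway were given by lists, each counted at 2-fold among members with at least 5 FPKM. Of 4 further IkB family genes, 3 passed that minimum and 2 were higher with LPS in both genotypes, where 13.7% of all genes were in Spic-/- cells and 12.3% in control cells. Nfkbib, which encodes IkB beta, was at 165 FPKM with LPS and 21.7 FPKM without LPS in Spic-/- cells, and at 144 FPKM with LPS and 21.4 FPKM without LPS in control cells. Nfkbid, which encodes a nuclear IkB protein, had log2 LPS ratios of 1.48 in Spic-/- cells and 1.36 in control cells. Nfkbil1, a more distant IkB-like gene, had log2 LPS ratios of 0.95 in Spic-/- cells and 0.75 in control cells, and Ankrd42 was under 0.5 FPKM in every library. None of these was 2-fold apart between genotypes.

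IkB kinase genes and the kinases above them were higher with LPS in 3 of 10 cases and lower in 1 in each genotype. Of all genes, 13.7% were higher and 7.74% lower in Spic-/- cells, and 12.3% were higher and 6.5% lower in control cells, so the count of lower genes is near the share of all genes. Tab2, an adaptor of the kinase TAK1, had the highest log2 ratio, 1.94 in Spic-/- cells and 1.73 in control cells. It was followed by Ikbke, a non-canonical IkB kinase gene, with a log2 ratio of 1.62 in Spic-/- cells and 1.69 in control cells. Ikbkb, the catalytic subunit that phosphorylates IkB, had a log2 ratio of 1.495 in Spic-/- cells and 1.30 in control cells. Tab1, another TAK1 partner gene, was the lower one, with a log2 ratio of -1.21 in Spic-/- cells and -1.02 in control cells. The median log2 ratio of the list was 0.54 in Spic-/- cells and 0.52 in control cells, and 0 of the list were 2-fold apart between genotypes in either LPS state. Of all genes 0.493% were higher and 0.4% lower with LPS, and 0.49% higher and 0.412% lower without LPS, so that 0 does not set the list apart.

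Ubiquitin and scaffold regulators were higher with LPS in 10 of 22 cases in Spic-/- cells and 11 of 22 in control cells, where 13.7% of all genes were in Spic-/- cells and 12.3% in control cells. They were lower in 0 cases, where 7.74% of all genes were in Spic-/- cells and 6.5% in control cells. Traf1, a signalling adaptor gene, led with a log2 LPS ratio of 4.23 in Spic-/- cells and 4.61 in control cells. Zc3h12a, an RNase gene that limits cytokine mRNA, followed with a log2 ratio of 3.63 in Spic-/- cells and 3.58 in control cells, and Tnip1, which encodes a partner of A20, had a log2 ratio of 3.43 in Spic-/- cells and 3.55 in control cells. Birc3, a ubiquitin ligase gene, had a log2 ratio of 2.79 in Spic-/- cells and 2.97 in control cells, and Tnip3, which encodes another A20 partner, had a log2 ratio of 2.05 in Spic-/- cells and 3.02 in control cells. Between genotypes 1 of 22 was 2-fold or more higher in Spic-/- cells without LPS, where 0.49% of all genes were, and 0 of 22 with LPS, where 0.493% were. As for lower genes, the count was 0 in both LPS states, where 0.412% of all genes were without LPS and 0.4% with LPS. The 1 higher gene was Traf1, at 17.95 FPKM in Spic-/- cells and 8.25 FPKM in control cells without LPS, an FPKM ratio of 2.18 (1.93 to 2.46). With LPS it was at 354 FPKM in Spic-/- cells and 224.5 FPKM in control cells. Tnip3 with LPS was on the other side, at 279 FPKM in Spic-/- cells and 408 FPKM in control cells.

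The list of genes known to depend on IkB zeta in mouse macrophages has 8 members, of which Il6, Il12b, Csf2, Csf3 and Edn1 were at 1.23 FPKM or less without LPS. These passed the minimum only through a library with LPS, so no count at 2-fold over LPS is given for the list. The cytokine gene Il6 was at 1004 FPKM with LPS and 1.23 FPKM without LPS in Spic-/- cells, and at 577 FPKM with LPS and 0.146 FPKM without LPS in control cells. Edn1, the endothelin gene, was at 249.8 FPKM with LPS and 0.398 FPKM without LPS in Spic-/- cells, and at 172 FPKM with LPS and 0.599 FPKM without LPS in control cells. Il12b was at 69.7 FPKM in Spic-/- cells and 55.5 FPKM in control cells with LPS and was listed at 0 without LPS in both. The FPKM ratio of Spic-/- to control cells with LPS was above 1 for 6 of the 8 and below 1 for Cebpd and Lcn2. Of all 7509 genes 68.1% were above 1, so the count is near that share. The ratio was 4.74 (3.10 to 7.38) for the growth factor gene Csf2, 1.88 for Csf3, 1.74 for Il6 and 1.45 for Edn1. The other 4 genes, added after their values were seen, had 1.26 for Il12b, 1.08 for Ebi3, 0.898 for Lcn2 and 0.739 for Cebpd, so the 1.24 of Nfkbiz lay within the range of the list. Csf2, at 22.2 FPKM in Spic-/- cells and 4.69 FPKM in control cells, passed the 5 FPKM minimum only through the Spic-/- library. For that reason no count at 2-fold between genotypes is given for the list either.

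**Figure D5:**
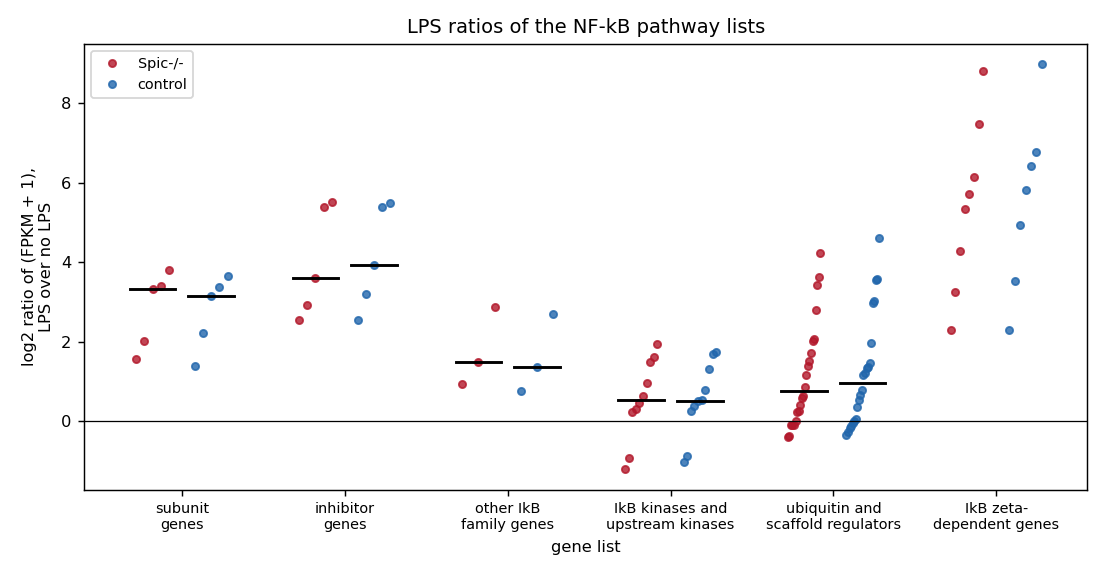
Log2 ratio of (FPKM + 1), LPS over no LPS, for the genes of each pathway list with at least 5 FPKM, in Spic-/- and in control cells, with list medians as bars (none for the IkB zeta-dependent genes, some of which are listed at 0 without LPS). The subunit and inhibitor genes all lie above 1, and kinases and ubiquitin regulators spread from below 0 upward.

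Across the 4 libraries, each member was set against 7765 other named genes by the distance between mean-centred log2(FPKM + 1) values. The nearest gene was Vasp for Nfkbie (distance 0.02), Tnfrsf1b for Rel (0.04), B4galt5 for Relb (0.04), Tor1aip2 for Rela (0.04), AI504432 for Nfkb1 (0.07) and Mapkapk2 for Nfkb2 (0.08). It was Oasl1 for Nfkbiz (0.09), Klf7 for Bcl3 (0.11), Ccl5 for Nfkbia (0.18) and Slc7a11 for Tnfaip3 (0.21). Tnfaip3 was the one member with another member nearer than any other gene, Nfkbiz, at a distance of 0.18. For Rela 787 genes were nearer than the nearest member, Relb, at 0.67. Klf7, which encodes a Krüppel-like factor, shared with Bcl3 the lower level in Spic-/- cells with LPS, at 36.4 FPKM in Spic-/- cells and 44.4 FPKM in control cells. These distances rest on 4 single libraries.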

How the data were processed

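Per the submitters' processing notes, Cuffnorm 2.2.1, Bowtie2 2.2.3, TopHat2 2.0.13 and SAMtools 0.1.19 took part, on build mm10, in no stated role, with an annotation not given in the sources used here. FPKM values were deposited by the authors, 1 file per library with 23284 rows and no duplicate symbols. Pairs of libraries were compared as log2 ratios of (FPKM + 1) in Python 3.11.15 (numpy 2.4.6, pandas 2.3.3, scipy 1.17.1), and a gene entered with at least 5 FPKM in 1 of the 2 libraries. No test was run. Relative depth was estimated from values under 0.3 FPKM, where values take whole multiples of 1 fragment. Of 2419 genes under 0.6 FPKM after scaling for depth and above 0 in at least 3 libraries, 1916 took such multiples within a tolerance of 0.02. Fragments per kilobase came from 234 of these with a single transcript, of which 126 were within 2% of their median. Lengths came from GENCODE vM21 (GRCm38, the same assembly as mm10) less 220 bases, and exact (Clopper-Pearson or Poisson) 95% intervals from the resulting fragment estimates. The counting was tested on simulated data. All 10 members are named, and of each other list up to 4 genes with the largest ratios. One neutrophil marker was not matched. Members and lists were chosen with earlier results of these data known. Alternatives were pseudocounts of 0.1 and 5 FPKM, no minimum or minima of 1 and 20 FPKM, median-of-ratios and upper-quartile scaling, thresholds of 1.5-fold and 3-fold, and small RNA and unnamed rows left out.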

Additional observations from a re-analysis of the deposited data

Results flagged for a closer look

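Among the members and the pathway lists, 2 genes had genotype ratios of opposite sign in the 2 LPS states, each with a counting interval clear of 1, and neither is a member. Tnip3, which encodes a binding partner of A20, had a log2 ratio of Spic-/- to control cells of -0.55 with LPS and 0.42 without LPS. Lcn2, the lipocalin 2 gene, had -0.15 with LPS and 0.93 without LPS. Without LPS Lcn2 was at 5.63 FPKM in Spic-/- cells and 2.48 FPKM in control cells. It thus passed the 5 FPKM minimum there only through the Spic-/- library, where it was higher. The difference between LPS states was not tested, since each rests on 4 single libraries.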

How the results depend on the processing

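No paired analysis was possible because each group has 1 library. The count of members at 2-fold stayed at 10 of 10 for LPS in each genotype under the other pseudocounts and the scalings run. It was 9 of 10 at 3-fold, where Rela fell short. The minima could not change the LPS count, since every member was above 20 FPKM with LPS. The count stayed at 0 of 10 between genotypes, and at 0 for the difference of LPS responses, under the alternatives run for each, with 6 of the 10 genes left at the 20 FPKM minimum without LPS. The deposited FPKM of all genes summed to 819232 with LPS and 525348 without LPS in Spic-/- cells. In control cells the sums were 736818 with LPS and 500123 without LPS. Scaling to equal sums was not run. By these sums it would lower every LPS ratio and take Rela, which has the least margin, below 2-fold in both genotypes. The count at 2-fold would then not be 10 of 10. Equal sums would also lower the genotype ratios in both LPS states. Upper-quartile scaling shifted the median log2 ratio of all genes with LPS to -0.06 in Spic-/- cells and -0.07 in control cells, and moved the share of higher genes among 2-fold calls to 51.3% in Spic-/- cells (63.9% as deposited) and 52.9% in control cells (65.5% as deposited). Between genotypes it moved that share to 44.6% with LPS (55.2% as deposited) and to 45.5% without LPS (54.3% as deposited). Under pseudocounts and scalings the member median ranged from 3.18 to 3.40 for LPS in Spic-/- cells, from 2.94 to 3.34 for LPS in control cells, from 0.19 to 0.28 for genotype with LPS and from 0.19 to 0.27 for genotype without LPS. The genotype ratio of Nfkbia with LPS ranged from 0.001 to 0.09 on the log2 scale. Of the values for single genes, for the members together and for all genes, 322 stayed within a set limit and 54 moved beyond it. The limit was the half-width of the counting interval for ratios, 0.1 for differences of LPS responses and 1.5-fold for counts. The 322 include single-gene ratios under the other minima, which a minimum cannot change, so they overstate the stability. The sign turned in 2 of all these values, both with the pseudocount of 5 FPKM: the difference of LPS responses, near 0 with 1 FPKM, became 0.09 for Nfkbiz and 0.04 for Nfkbie. Of the 54, 28 moved under upper-quartile scaling and 20 under the pseudocount of 5 FPKM. Leaving out small RNA and unnamed rows lowered the genes 2-fold apart between genotypes to 42 with LPS (67 with all rows) and 44 without LPS (70 with all rows). Counting error limits Bcl3 without LPS most.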
